A study of Caenorhabditis elegans with 6 samples.

Results

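In the nematode Caenorhabditis elegans, 2415 regions carried a called peak of histone H3 acetylated at lysine 27 (H3K27ac) but shared no base with any called peak of histone H3 acetylated at lysine 18 (H3K18ac). They were chosen by position alone, as the nuclear H3K27ac peaks that overlap no H3K18ac peak by 1 bp or more. They made up 14.2% (95% exact interval 13.6 to 14.7%) of the 17060 H3K27ac peaks in the span that both tables cover, and the other 14645 peaks overlapped an H3K18ac peak. A further 703 H3K27ac peaks on chromosome X lie beyond 7889771 bp, where the H3K18ac table ends, and could not be placed in either set. A region without an H3K18ac peak is not a region without H3K18ac, because the H3K18ac table gives no value outside its own peaks.

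Chromatin came from wild-type N2 worms at the L4 to young adult stage, grown at 20 °C and fed E. coli HT115 from the egg on. In the cco-1 RNAi group 50% of the bacteria carried RNAi targeting cco-1, a gene for a subunit of cytochrome c oxidase in the respiratory chain, and the rest carried the empty vector. In the empty-vector group all bacteria carried the empty vector, and the series text adds that the worms carried an hsp-6::GFP reporter. Each mark was measured in 1 library per RNAi condition, so no difference between conditions has a replicate check, and the 2 input libraries were not analysed here.

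H3K27ac and H3K18ac are placed on histone H3 largely by acetyltransferases of the CBP/p300 family, whose worm member is CBP-1, and both are found at active promoters and enhancers. In C. elegans, chromosomes have gene-rich central regions with many genes used in all cells and in the germline, and arms rich in young, expanded gene families that are expressed in few cells. Silencing cco-1 disturbs the mitochondrial respiratory chain and turns on the mitochondrial unfolded protein response (UPRmt).

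Counts in nuclear peaks summed to 11593321 for cco-1 RNAi and 11556404 for empty vector in the H3K27ac libraries, and to 8948860 and 8293828 in the H3K18ac libraries. All levels below are H3K27ac counts per 1000000 counts in nuclear peaks (CPM), and all ratios are cco-1 RNAi over empty vector. A peak is described as risen or fallen when its ratio was at least 1.5-fold, a rule of size and not a test. Fold intervals in brackets are exact 95% intervals that cover counting error only. The worms were whole animals, so fewer cells carrying a mark and less mark per cell cannot be told apart.

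The regions without an H3K18ac peak were narrow and weak. Their median width was 344 bp, with quartiles of 306 and 441 bp, against 519 bp (407 to 833 bp) for the peaks that overlapped H3K18ac. The median level was 8.11 CPM with cco-1 RNAi and 11.9 CPM with empty vector, against 33.4 and 37.6 CPM at the overlapping peaks. Per kilobase of peak, the median level was 22.3 CPM with cco-1 RNAi and 32.5 CPM with empty vector in these regions. The overlapping peaks had 55.4 CPM per kilobase with cco-1 RNAi and 65.3 CPM per kilobase with empty vector. They were thus lower also per kilobase, and they held only 2.53% of the cco-1 RNAi counts and 3.43% of the empty-vector counts.

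All H3K27ac peaks were ranked by mean CPM and split into 5 classes of equal size, class 1 being the weakest. Class 1 took 70.7% of the regions (1707 of 2415), against 11.3% of the overlapping peaks, and 50.8% of its peaks had no H3K18ac partner. The share was 15.1% in class 2, 4.56% in class 3, 0.988% in class 4 and 0.0585% in class 5, where 2 regions remained. The share also fell with width. Of peaks up to 300 bp wide 58.3% lacked an H3K18ac peak, against 27.6% between 300 and 400 bp, 7.52% between 400 and 600 bp, 6.89% between 600 and 1000 bp and 2.94% of wider ones. At the median region the counts were 94 with cco-1 RNAi and 138 with empty vector, so that counting error alone gives the ratio a relative error of 13.4%, against 6.99% at the overlapping peaks.

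**Figure D1:**
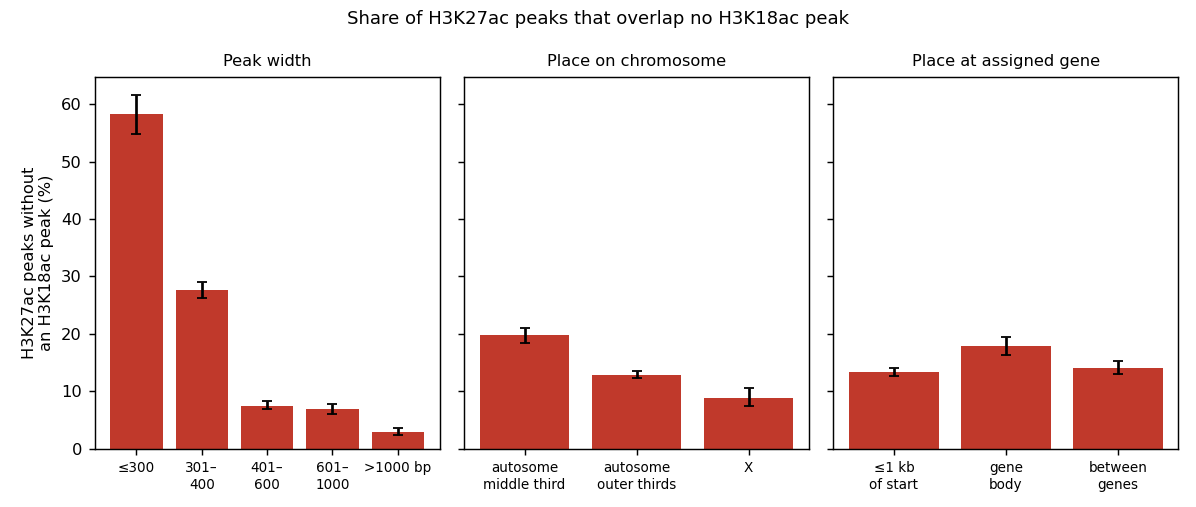
Share of H3K27ac peaks that overlap no H3K18ac peak (percent, y axis), by peak width, by place on the chromosome and by place at the assigned gene; bars are shares and lines are exact 95% intervals. The share is highest among peaks up to 300 bp wide (58.3%) and lowest above 1000 bp (2.94%), and it is higher in the middle of the autosomes (19.7%) than on their outer parts (12.9%) or on X (8.91%).

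Of the 2415 regions, 1264 had at least 1.5-fold less H3K27ac with cco-1 RNAi and 205 had at least 1.5-fold more. These are 52.3% (50.3 to 54.3%) and 8.49% of the set, while among all nuclear H3K27ac peaks 23.1% were lower and 8.73% higher by the same rule. The share that fell was therefore above the background, and the share that rose was near it with this scaling. The median log2 ratio of the regions was -0.62 (-0.65 to -0.59), against -0.14 at the overlapping peaks and -0.19 over all H3K27ac peaks. Scaling to the median peak ratio adds 0.19 to each log2 ratio, and scaling by trimmed mean of M values (TMM) adds 0.17. With median scaling the median of the regions was -0.43, with 972 fallen (40.2%) and 270 risen (11.2%), while among the overlapping peaks 10.1% fell and 15.3% rose. With TMM scaling it was -0.44, with 995 fallen and 260 risen (10.8%), while 14.6% of the overlapping peaks rose. Over all 17763 peaks the split was 2564 lower and 2621 higher with median scaling, in place of 4098 and 1551. The share of the regions that rose was thus below that of the overlapping peaks under both scalings, but not after the centring on strength given below. By a 2-fold rule 620 regions fell (25.7%) and 107 rose (4.43%), against 7.41% and 2.63% of all H3K27ac peaks.

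The table has a floor that bears on these ratios. Each region reached at least 5.11 CPM in 1 of the libraries, while the lowest value in the weaker library was 1.55 CPM. All 205 regions that rose had at least 6.64 CPM with cco-1 RNAi and as little as 1.82 CPM with empty vector, and all 1264 that fell had at least 5.11 CPM with empty vector and as little as 1.55 CPM with cco-1 RNAi. A weak region that entered the table only through the library in which it is high had to differ, so the counts above describe the table and do not show how many weak sites in the genome changed. The peak set was called in a way not given in the sources used here, and the part of this floor in the excess of lower ratios was not tested.

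**Figure D2:**
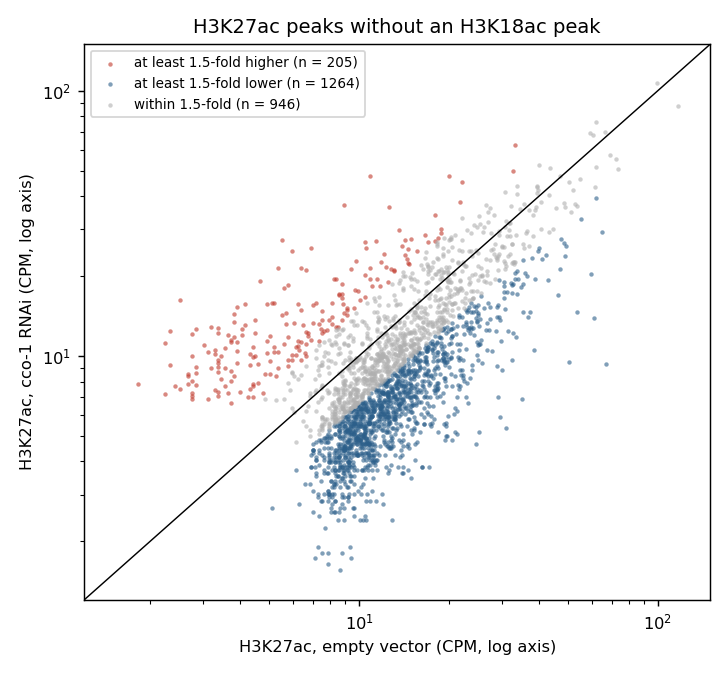
H3K27ac level with cco-1 RNAi (y axis) against empty vector (x axis), both in CPM on log axes, for the 2415 regions without an H3K18ac peak; the line marks equal levels. Of these, 205 lie at least 1.5-fold above the line and 1264 at least 1.5-fold below it, and the lower left corner is empty because each region reached 5.11 CPM or more in 1 of the libraries.

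Compared within strength classes, the gap to the overlapping peaks narrowed but kept its direction. The classes match strength only roughly. In class 1 the median mean level was 8.59 CPM for the regions and 10.4 CPM for the overlapping peaks, and in class 2 it was 16.0 and 17.5 CPM. The part of this remaining difference in the gap was not tested. In class 1 the median log2 ratio was -0.73 for the regions and -0.40 for the overlapping peaks, and 59.5% against 34.1% had fallen. In class 2 the medians were -0.43 and -0.34, in class 3 -0.30 and -0.21, and in class 4, with 34 regions, -0.20 and -0.04. After each ratio was centred on the median of all H3K27ac peaks in the same decile of strength, the median of the regions was -0.12. The regions are 50.8% of the peaks in class 1, so they weigh on the medians used for centring there. The split of called regions was then 449 lower and 358 higher (55.6% lower), in place of 1264 lower and 205 higher. These are 18.6% and 14.8% of the regions, against 9.30% and 11.9% of the overlapping peaks. The share that rose was thus above that of the overlapping peaks after centring, unlike under median and TMM scaling.

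**Figure D3:**
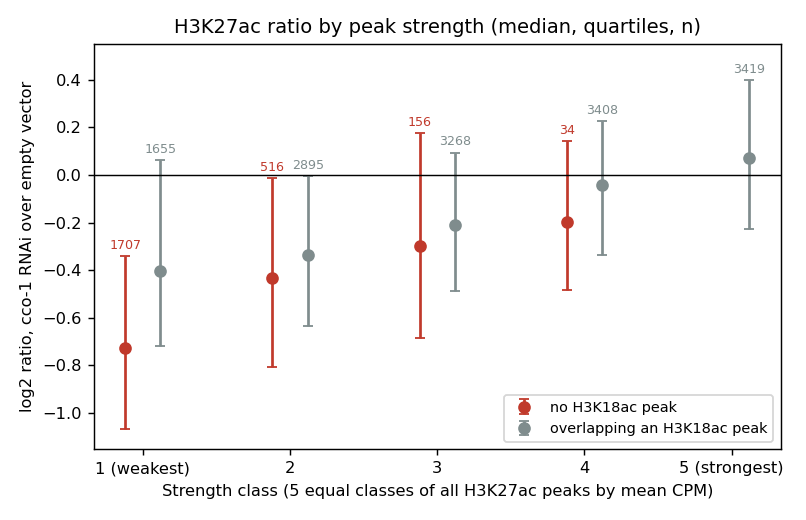
Log2 ratio of H3K27ac, cco-1 RNAi over empty vector (y axis), by strength class of mean CPM (x axis, 5 equal classes), for regions without an H3K18ac peak and for overlapping peaks; points are medians, lines run between quartiles, and numbers give the peaks in each set. The medians are -0.73 and -0.40 in class 1 and -0.20 and -0.04 in class 4, and the 2 regions of class 5 are not drawn.

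A small part of the set was broad. The 79 regions wider than 1000 bp had a median mean level of 31.8 CPM, against 102.5 CPM at overlapping peaks of that width, and 25.7 CPM per kilobase in each condition. Their median log2 ratio was 0.03 (-0.17 to 0.25), with 13 risen and 13 fallen. In the 1166 regions wider than 300 and up to 400 bp the median was -0.69, with 665 fallen and 68 risen. Of the broad regions 62 lay over the start of the assigned gene (78.5%, 67.8 to 86.9%), against 23.2% of the regions of all widths, and 71 were assigned to a protein-coding gene. The median distance to the nearest H3K18ac peak was 2918 bp, and 60 of the 79 were more than 1 kb from one. Of the 79, 53 lay in the middle section of an autosome (67.1%, 55.6 to 77.3%), 26 in the outer sections and 0 on X. Among the broad peaks that overlap H3K18ac, 31.4% lay in a middle section. On X, 0 of 155 broad peaks lacked an H3K18ac partner, and the exact interval allows up to 2.35%. In the middle sections the median log2 ratio of the broad regions was 0.23 and in the outer sections -0.36. At the broad overlapping peaks these medians were 0.05 and -0.03.

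The strongest region of the set lay 767 bp from the start of W01D2.1 on chromosome II (14813692 to 14814751 bp), with 1244 counts (107.3 CPM) with cco-1 RNAi and 1151 counts (99.6 CPM) with empty vector. The nearest H3K18ac peak began 694 bp away, was assigned to the same gene, and had 984 counts with cco-1 RNAi and 665 with empty vector. At D2045.2 on chromosome III (10459477 to 10460557 bp) there were 1014 counts with cco-1 RNAi and 1351 with empty vector. Neither region passed the 1.5-fold rule.

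The widest region, 2608 bp on chromosome V (9643909 to 9646516 bp), covered the start of hcp-2, which encodes a kinetochore protein related to CENP-F. It held 886 counts (76.4 CPM) with cco-1 RNAi and 718 counts (62.1 CPM) with empty vector, a ratio of 1.23 (1.11 to 1.36). Genes of the proteasome core followed. The region at pas-7 was 2059 bp wide with 810 counts with cco-1 RNAi and 772 with empty vector, and that at pas-4 was 2118 bp wide with 791 and 700 counts. At vps-4, an ATPase of the membrane-scission machinery, a region of only 297 bp held 805 counts with cco-1 RNAi and 686 with empty vector. All of these levels were within 1.5-fold of each other in the conditions compared.

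Other broad regions are named here after their values were seen. Some lay at genes known for roles in the germline, and these examples stand for no group. All regions named in this paragraph had ratios below 1, while of all 79 broad regions 38 did. Genes of the next paragraph may act in the germline too, such as dcr-1 and emb-27, with ratios of 1.18 and 1.21. These paragraphs therefore do not compare tissues, and the shared direction here holds for the chosen examples only. At prg-1, the Piwi protein that binds piRNAs, there were 379 counts with cco-1 RNAi and 641 with empty vector, a ratio of 0.589 (0.518 to 0.670). At glh-4, a Vasa-like helicase of germ granules, the counts were 319 and 550, a ratio of 0.578 (0.502 to 0.665). At him-3, a protein of the meiotic chromosome axis, they were 406 with cco-1 RNAi and 590 with empty vector (0.686, 0.603 to 0.780), which just misses the rule of size. The region at coh-3, a meiotic cohesin subunit, had 491 and 600 counts, and that at cdc-25.1, a cell-cycle phosphatase of the germline, had 328 and 369 counts. The glutamine synthetase gene gln-6 had 339 counts with cco-1 RNAi and 752 with empty vector, a ratio of 0.449 (0.394 to 0.512).

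Further examples, likewise named after their values were seen, lay at genes used in many cells. At rpb-8, a subunit of RNA polymerase, there were 476 counts with cco-1 RNAi and 456 with empty vector. At dcr-1, the Dicer ribonuclease, there were 356 and 302, and at emb-27, a subunit of the anaphase-promoting complex, 472 and 390. The region at tsfm-1, a mitochondrial translation elongation factor, rose 1.53-fold (1.34 to 1.74), with 579 counts with cco-1 RNAi and 378 with empty vector. At sod-2, a mitochondrial superoxide dismutase, 331 counts with cco-1 RNAi stood against 388 with empty vector. By the rule for the widest regions, ZC477.3 on chromosome IV also belongs here, with 724 counts with cco-1 RNAi and 383 with empty vector, a rise of 1.88-fold (1.66 to 2.14).

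**Figure D4:**
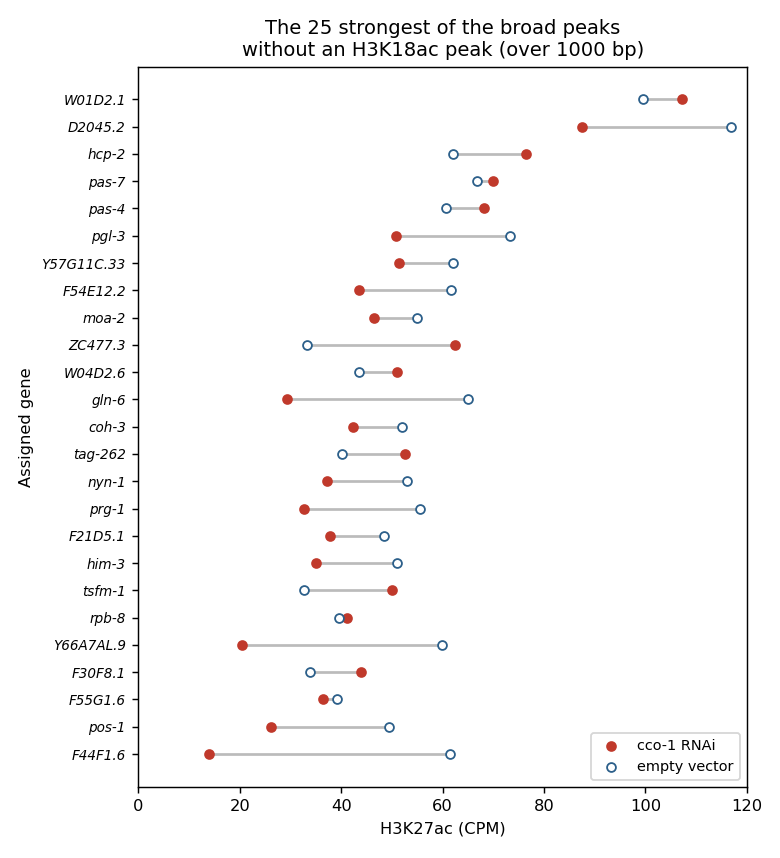
H3K27ac level (CPM, x axis) of the 25 strongest regions over 1000 bp wide without an H3K18ac peak, named by assigned gene and ordered by mean level; filled points are cco-1 RNAi, open points empty vector, 1 library each. hcp-2, pas-7 and pas-4 have ratios of 1.23, 1.05 and 1.13, within 1.5-fold. ZC477.3 and tsfm-1 are at least 1.5-fold higher with cco-1 RNAi, and gln-6, prg-1 and pos-1 are lower.

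Of 24 H3K27ac peaks assigned to germline and oocyte markers, 8 lacked an H3K18ac peak (33.3%, 15.6 to 55.3%), against 14.2% of all peaks. Of the 8 regions 6 fell and 0 rose, with a median log2 ratio of -0.94, and the other 16 peaks of the list had -0.66. In the whole set 52.3% of the regions fell and 8.49% rose, and among all H3K27ac peaks 23.1% fell and 8.73% rose. Whether these 8 regions differ from the set was not tested. At egg-1, an oocyte surface protein needed for fertilization, there were 69 counts with cco-1 RNAi and 230 with empty vector, a ratio of 0.299 (0.225 to 0.393). At mex-6, an RNA-binding protein of the oocyte and early embryo, there were 246 and 543 counts (0.452, 0.387 to 0.526). This mex-6 region, 1285 bp over the gene start on chromosome II (9524011 to 9525295 bp), lay 23081 bp from the nearest H3K18ac peak. The Vasa-like helicase gene glh-1 had 88 counts with cco-1 RNAi and 176 with empty vector. The yolk receptor gene rme-2 held a pair of regions, of which one fell (112 counts with cco-1 RNAi, 218 with empty vector) and one stayed inside the rule (82 and 108). The embryonic RNA-binding proteins pos-1 and oma-2 had 302 and 308 counts with cco-1 RNAi against 570 and 559 with empty vector. At pgl-3, a germ-granule protein, 589 counts with cco-1 RNAi stood against 848 with empty vector, a ratio of 0.692 (0.622 to 0.770). In all 8 regions the ratio was below 1, as it was in 81.8% of the whole set. Of 38 peaks at sperm markers 6 lacked an H3K18ac peak, of which 5 fell and 0 rose, with a median of -0.88, and the same shares of the whole set stand beside them.

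Markers of somatic tissues had few peaks in all, and their shares could not be told from the 14.2% of all peaks at these numbers. None of 21 peaks at neuron markers and none of 8 at hypodermis markers lacked an H3K18ac peak, and the exact intervals allow up to 16.1% and 36.9%. Of 11 peaks at intestine markers 2 did, at asp-1, an aspartic protease (log2 ratio 0.63), and at elt-7, an intestinal GATA factor (-0.12). Body wall muscle had 1 of 15, at pat-10, a troponin C (-0.61), and the pharynx had 1 of 4, at myo-1, a pharyngeal myosin (-1.10). The part that a different share of germline tissue may have in the ratios was not tested.

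The place on the chromosome separated the regions further. In the middle sections of the autosomes 19.7% of H3K27ac peaks (773 regions) lacked an H3K18ac peak, against 12.9% (1519 regions) in the outer sections and 8.91% (123 regions) on the covered part of X. The order held within strength classes. In class 1 the shares were 58.1%, 50.0% and 36.3%, in class 2 23.6%, 13.7% and 3.79%, and in class 3 10.9%, 3.03% and 0.735%. In the middle sections 41.4% of the regions fell and 12.7% rose, with a median log2 ratio of -0.45. In the outer sections 56.5% fell and 6.39% rose, with a median of -0.69. On X 69.9% fell (86 of 123) and the median was -0.88. The overlapping peaks had the same order, with 14.1% fallen in the middle sections, 18.8% in the outer sections and 22.99% on X. Their medians were -0.07, -0.15 and -0.21, and 10.9% rose in the middle and 8.17% in the outer sections. The order was thus not particular to the regions without an H3K18ac peak. Among the autosomes the medians of the regions were -0.56 on I, -0.72 on II, -0.49 on III, -0.60 on IV and -0.72 on V. The overlapping peaks kept a narrower range, between -0.07 on III and -0.21 on X.

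Within 1 kb of the assigned gene start lay 58.9% of the regions, against 63.1% of the overlapping peaks, while gene bodies held 17.7% against 13.4% and stretches between genes 23.4% against 23.5%. Within strength classes the order at gene starts was the same in class 1 and the reverse in classes 2 to 4. Within 1 kb of a start were 54.8% of the regions against 55.7% of the overlapping peaks in class 1, 63.4% against 56.8% in class 2, 81.4% against 59.2% in class 3 and 91.2% against 64.6% in class 4. Exons and introns were not told apart. Of these 3 places, the stretches between genes had the lowest median log2 ratio, -0.76, against -0.59 in gene bodies and -0.57 near starts. Between genes 348 of 564 regions fell (61.7%), against 52.3% in the whole set. Of the overlapping peaks 17.1% fell between genes, 17.3% in gene bodies and 18.7% near starts. The authors' deposited table also classes each peak against its gene. It places 446 regions across a gene start, with a median of -0.21, of which 138 fell (30.9%) and 62 rose (13.9%). Regions it places across a gene end had -0.91, with 52 of 68 fallen (76.5%), and regions downstream of a gene -0.82, with 174 of 267 fallen (65.2%). Among overlapping peaks 14.3% fell and 11.9% rose across a gene start, while 24.2% fell across a gene end and 19.9% downstream.

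Of the 2415 regions 1795 were assigned to protein-coding genes, with a median log2 ratio of -0.55. The counts by gene type that follow stand against 52.3% fallen and 8.49% risen in the whole set. Of 98 regions nearest to pseudogenes 80 fell (81.6%) and 1 rose, with a median of -0.95. Overlapping peaks nearest to pseudogenes were lower too, with 31.7% fallen, 2.88% risen and a median of -0.40. Among all overlapping peaks 18.1% fell and 8.73% rose, with a median of -0.14. Of 12 at long noncoding RNA genes 10 fell (83.3%) and 0 rose, with a median of -1.17. Of the 85 nearest to piRNA loci 56 fell (65.9%) and 14 rose (16.5%), with a median of -0.76. Of the 23 at transfer RNA genes 16 fell (69.6%) and 1 rose, and of the 11 at microRNA genes 9 fell (81.8%) and 0 rose. Among overlapping peaks 19.7% fell at long noncoding RNA genes, 17.3% at piRNA loci, 20.7% at transfer RNA genes and 21.4% at microRNA genes. Assigned genes are the nearest features of the deposited table, and a nearest feature need not be the gene a region acts on.

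In all, 2231 genes were assigned at least 1 of these regions. For 1243 of them (55.7%) neither an H3K18ac peak nor an overlapping H3K27ac peak was assigned, so that all their H3K27ac peaks in the span were of this kind. The ratio did not depend on this: the median was -0.61 in the 1324 regions of those genes and -0.62 in the other 1091. F39C12.1 on chromosome X had the most, with 4 regions. By position they had 2.85, 3.54, 6.21 and 8.63 CPM with cco-1 RNAi, against 8.57 to 10.9 CPM with empty vector, so the ratio ran from 0.261 to 1.01 along the gene while the empty-vector level varied little. At ttx-1, an OTX homeobox gene of thermosensory neurons, 3 regions had 60, 62 and 34 counts with cco-1 RNAi against 105, 114 and 101 with empty vector. At dsh-2, a Dishevelled gene of Wnt signalling, 3 regions had 78, 139 and 68 counts against 113, 281 and 95. At acly-2, an ATP citrate lyase gene, they had 130, 74 and 87 counts against 211, 166 and 191. All 9 regions of ttx-1, dsh-2 and acly-2 had ratios below 1, as had 81.8% of the whole set.

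The largest falls among regions of at least median strength were deep. At F40G9.6 on chromosome III (179128 to 179769 bp) there were 108 counts (9.32 CPM) with cco-1 RNAi and 774 counts (67.0 CPM) with empty vector, a ratio of 0.139. At T24B8.21 on chromosome II there were 62 and 360 counts, and at Y82E9BR.1 on chromosome III 110 and 581. Both regions at gcy-21, a receptor guanylyl cyclase of sensory neurons, fell, with 54 and 60 counts with cco-1 RNAi against 285 and 292 with empty vector. At ham-1, which acts in asymmetric divisions of neuroblasts, there were 44 counts with cco-1 RNAi and 198 with empty vector. The broad region at F44F1.6, 1613 bp wide, had 161 counts with cco-1 RNAi and 709 with empty vector (0.226, 0.190 to 0.269).

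The largest rise by the same rule was at K08A2.13 on chromosome II (2971464 to 2971799 bp), with 316 counts (27.3 CPM) with cco-1 RNAi and 64 counts (5.54 CPM) with empty vector, a ratio of 4.92. Y48A6B.10 on chromosome III had 553 counts with cco-1 RNAi and 126 with empty vector over 1306 bp, and lay 3762 bp from the gene start. R05D3.12 had 37.1 CPM with cco-1 RNAi and 8.91 CPM with empty vector. F59A3.8 had 287 and 69 counts, and Y32H12A.8 had 249 and 62. At syx-17, a syntaxin of autophagosome fusion, 215 counts with cco-1 RNAi stood against 67 with empty vector, a ratio of 3.20. With empty vector the levels of these 6 regions were at or under 10.9 CPM, below the set's median of 11.9 CPM.

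Nuclear hormone receptors, a large worm family of ligand-regulated transcription factors, had a median above 0, unlike the set as a whole. Of 153 peaks at these genes 17 lacked an H3K18ac peak, and of the 17 regions 8 rose and 4 fell, with a median log2 ratio of 0.40 (0.59 with median scaling). In the whole set 8.49% rose and 52.3% fell. In strength class 1, which held 15 of the 17 regions, 8.73% of all regions rose and 59.5% fell. The 8 that rose had 2.77 to 7.96 CPM with empty vector, so the floor described above bears on them. At nhr-226 on chromosome V there were 222 counts with cco-1 RNAi and 54 with empty vector, a rise of 4.10-fold (3.03 to 5.63). At nhr-104 there were 152 and 48 counts (3.16-fold, 2.27 to 4.46), and at nhr-8, a receptor with roles in xenobiotic resistance, 168 and 66 counts (2.54-fold, 1.90 to 3.43). The receptor genes nhr-109 and nhr-195, named after their values were seen, had 8.97 and 6.90 CPM with cco-1 RNAi against 3.55 and 2.77 CPM with empty vector. The largest fall was at nhr-262, with 49 counts with cco-1 RNAi and 125 with empty vector. The 136 receptor peaks that overlap H3K18ac had a median of -0.03, with 29 risen and 20 fallen (14.7%). Among all overlapping peaks 8.73% rose and 18.1% fell, so rises at these genes were not particular to the regions without an H3K18ac peak. At nhr-66, also named afterwards, 1 region rose, with 138 counts with cco-1 RNAi against 78 with empty vector, and the next one had 83 against 112.

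F-box genes, which encode substrate adaptors of ubiquitin ligases and form large expanded families in worms, had mostly lower regions. Of their 152 peaks 35 lacked an H3K18ac peak (95% interval of the share 16.6 to 30.5%), against 14.2% of all peaks. Of the 35 regions 31 fell (88.6%) and 1 rose, with a median log2 ratio of -1.37, against 52.3% fallen in the whole set and 59.5% in strength class 1, which holds 29 of the 35. At fbxb-41 there were 28 counts with cco-1 RNAi and 149 with empty vector, and at fbxb-15 there were 19 and 91. MATH and BTB genes, adaptors of another ubiquitin ligase class, had 12 of 46 peaks in the set (26.1%), with 10 fallen (83.3%), 0 risen and a median of -1.18. Chemoreceptor genes had 45 of 367 (12.3%), with 37 fallen (82.2%), 1 risen and a median of -0.91, and srh-72 had 21 counts with cco-1 RNAi against 101 with empty vector. C-type lectins, many of them induced by pathogens, had 21 of 128 (16.4%), with 13 fallen (61.9%), 1 risen and a median of -0.85. Class 1 held 10 of the 12 MATH and BTB regions, 43 of the 45 at chemoreceptors and 17 of the 21 at lectins. After centring on strength 23 F-box, 5 MATH and BTB, 12 chemoreceptor and 7 lectin regions were lower, and 2, 0, 1 and 2 were higher. In the whole set 18.6% were lower and 14.8% higher after centring. The overlapping peaks of these 4 families had medians between -0.56 and -0.39. Strength, place on the chromosome and family were not separated here.

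Of 12 regions at homeobox genes, all in strength class 1, 9 fell and 1 rose (median -0.88), while 59.5% of all regions in that class fell. All 5 regions at bHLH and T-box genes fell (median -1.47), 4 of them in class 1. They included a pair at hlh-2, the E protein of the worm, with 5.61 and 8.88 CPM with cco-1 RNAi against 19.6 and 30.2 CPM with empty vector. The histone genes his-47, his-57 and his-66 on chromosome IV had 157, 156 and 129 counts with cco-1 RNAi against 286, 264 and 292 with empty vector. With his-48, whose ratio was 0.371, all 4 histone regions fell. Histone genes are near-identical copies, and how reads that match several of them were counted is not given in the sources used here. The 16 histone peaks that overlap H3K18ac had a median of -1.05, close to the -1.03 of these 4.

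Other lists gave little. None of 52 peaks at genes of the cytosolic ribosome lacked an H3K18ac peak, and the exact interval allows up to 6.85%. At genes of the mitochondrial ribosome 10 of 56 did, with 1 fallen, 1 risen and a median log2 ratio of -0.25. Neuropeptide and insulin genes had 7 regions (5 fallen, 1 risen), detoxification enzymes 8 (3 fallen), cuticle collagens 4 (3 fallen), ion channels and receptors 4 (4 fallen), sperm genes 6 (5 fallen), and hedgehog-related genes 4 (2 fallen), with 0 risen in the last 5. In the whole set 52.3% fell and 8.49% rose. Of 19 peaks at genes of the UPRmt only the one assigned to spg-7, a mitochondrial protease, lacked an H3K18ac peak, with a log2 ratio of -0.03. None of dve-1, cbp-1, hsp-60, cco-1, hsp-6 and atfs-1 was assigned a region of this kind. The medians of the lists named above kept their sign under median and TMM scaling, apart from the single region at spg-7, which turned to 0.16 and 0.14. After centring on strength the median was 0.12 for the mitochondrial ribosome, 0.02 for detoxification enzymes and 0.44 for spg-7, so these changed sign, and it was -0.01 for hedgehog-related genes.

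**Figure D5:**
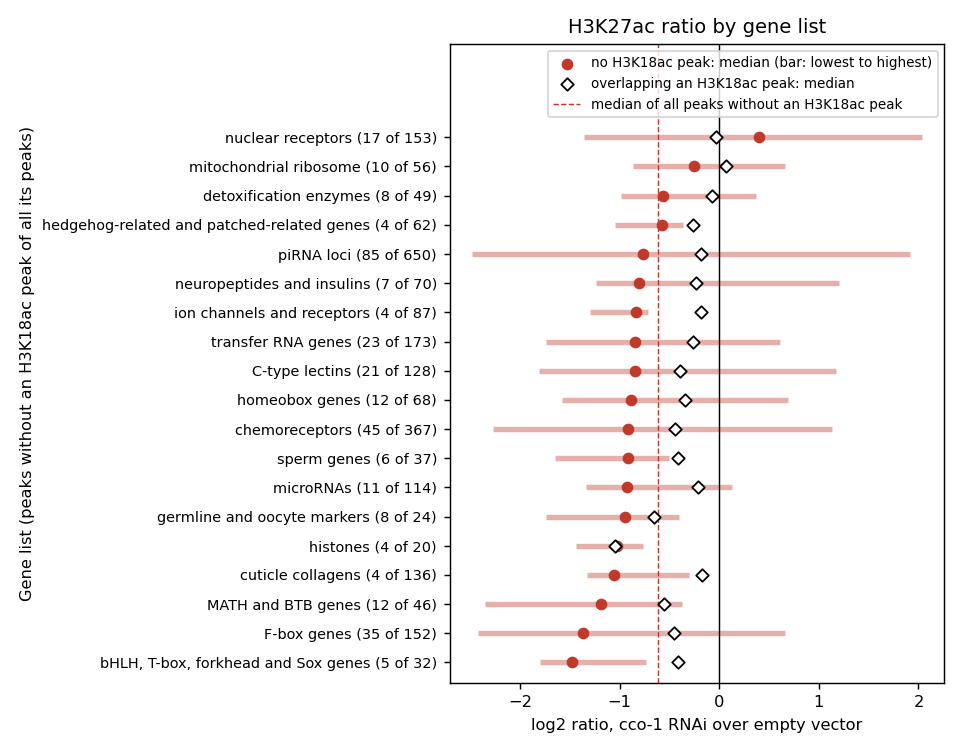
Log2 ratio of H3K27ac, cco-1 RNAi over empty vector (x axis), by gene list (y axis) for lists with at least 4 regions without an H3K18ac peak; filled points are their medians, bars run from the lowest to the highest region, diamonds are medians of the overlapping peaks, and the dashed line is the median of all 2415 regions. Nuclear receptors have a median of 0.40, and F-box genes have -1.37.

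Some regions came in rows. Along the chromosomes, 1569 of the 2415 stood alone between overlapping peaks, and 88 rows of 3 or more consecutive regions held 292 of them. Of these 292 regions 146 fell (50.0%) and 22 rose, against 52.3% fallen in the whole set, so regions in rows fell about as often as the rest. The rows named next are single examples. The longest row, 7 regions over 21150 bp of chromosome IV (11319880 to 11341029 bp), ran across the histone genes his-47, his-48 and his-57 and the splicing factor gene sart-3, with 1726 counts with cco-1 RNAi and 2573 with empty vector in sum. Of its regions 5 fell. A row of 6 on chromosome II ran from the homeobox genes ceh-82 and ceh-83 to F36H5.9 with 326 counts with cco-1 RNAi and 858 with empty vector, and all 6 fell. A row of 6 on chromosome I from noah-1 to stam-1 had 452 and 943 counts, and all 6 fell there too. In the row of 4 at mfap-1, syx-17, sig-7 and mrt-1 on chromosome I the direction was the other one, with 981 counts with cco-1 RNAi and 651 with empty vector.

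One stretch of the left arm of chromosome II was picked out after its values were seen. Between 1.6 and 1.9 Mb, 24 of 51 H3K27ac peaks lacked an H3K18ac peak (47.1%), and all 24 fell, with log2 ratios from -2.35 to -0.84 and a median of -1.45. Of the 24, 9 were assigned to F-box genes and 3 to BTB genes. The stretch includes fbxb-97, which at 25633 bp lay farther from an H3K18ac peak than any other region, with 32 counts with cco-1 RNAi and 94 with empty vector. The pseudogene btb-13 had 80 counts with cco-1 RNAi and 406 with empty vector. The 27 overlapping peaks of the stretch were all below 0 as well, with 22 fallen and a median of -0.98. Both kinds of peak were thus lower here with cco-1 RNAi.

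The nearest H3K18ac peak lay at a median of 1583 bp, with quartiles of 719 and 3389 bp. The H3K27ac ratio hardly varied with this distance, with medians between -0.65 and -0.56 over 5 classes of distance. Right at the border, 10 regions came within 100 bp of an H3K18ac peak without touching it and had a median log2 ratio of -0.03, and 8 overlapping peaks that shared at most 50 bp had 0.79. The H3K18ac libraries give a reading of the neighbourhood whose values did not enter the choice, although the positions of the H3K18ac peaks did. An H3K18ac peak nearest to several regions is counted for each of them. For 866 regions with an H3K18ac peak within 1 kb, the neighbour's own H3K18ac log2 ratio had a median of -0.11. Next to the 432 regions of these that fell, 120 H3K18ac neighbours fell (27.8%) and 8 rose (1.85%), with a median of -0.33, while among all H3K18ac peaks 13.2% fell and 9.16% rose. Next to the 80 that rose, 18 neighbours rose (22.5%) and 2 fell (2.50%), with a median of 0.30. The H3K27ac ratio of the region was below the H3K18ac ratio of its neighbour in 675 of 866 cases. The medians of the neighbours thus had the same sign as those of the regions but were closer to 0, in libraries prepared with another antibody.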

How the data were processed

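H3K18ac and H3K27ac were measured by ChIP-seq in 4 libraries, 1 for each mark and RNAi condition; worms were fixed with 1% formaldehyde for 30 min, per the labels' protocols. The deposited tables, 1 per mark, give peak positions, the nearest gene and whole-number counts per peak, per the file headers. They were read as counts, although the authors may have rounded normalized values. MACS2 2.1.2, SAMtools 1.4.1, Bowtie2 2.3.5, FastQC and the builds ce11 and WBcel235 stand in the submitters' processing notes. How reads were counted, how input was used and whether libraries were pooled for peak calling was not given in the sources used here.

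Of 17877 H3K27ac and 17331 H3K18ac lines, 111 and 119 repeated a peak and were merged, and 3 and 5 mitochondrial peaks with 0 counts were left out, which left 17763 and 17207 nuclear peaks. Counts were scaled to 1000000 counts in nuclear peaks. Log2 ratios had no pseudocount. No test was made, since each group has 1 library. Exact (Clopper-Pearson) 95% intervals of folds and shares, and order-statistic intervals of medians, cover counting error or the spread over peaks and no biological spread. Autosomes were cut into equal sections of their covered length. Distances to gene starts run from the nearest edge of the peak. A RefSeq gene table matched 98.3% of the regions' genes for gene type. Calculations used Python 3.11.15, pandas 2.3.3, NumPy 2.4.6 and SciPy 1.17.1, and edgeR 4.0.16 in R 4.3.3 for TMM factors only. The ratio and interval code was tested on simulated data.

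The regions, the 20 gene lists and the 7 marker lists were chosen with earlier results of these data known. Named genes are the 10 strongest regions, the 10 largest rises and falls at or above the regions' median mean level (10.03 CPM), the 5 widest, the 5 farthest from H3K18ac, the 5 genes with most regions, and up to 4 regions per list with the largest ratio; others are said to be named after their values were seen. Alternatives changed the scaling, pseudocount, strength, overlap rule, chromosomes, fold and distance. No sequence or base composition was analysed here.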

Additional observations from a re-analysis of the deposited data

How the results depend on the processing

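No alternative reversed the direction of the median. The median log2 ratio of the regions (-0.62) was -0.43 with median scaling, -0.44 with TMM scaling, -0.12 after centring on deciles of strength, -0.36 with a pseudocount of 7.01 CPM, -0.24 in the 88 regions at or above the median level of all peaks, and -0.58 for peaks covered over less than 50% of their length by H3K18ac. Its difference from the overlapping peaks (-0.48) was -0.14 after centring, -0.25 with the pseudocount, -0.21 at or above the median level and -0.45 with the coverage rule. The 1264 lower and 205 higher regions became 449 and 358 after centring, 520 and 101 with the pseudocount, 20 and 5 at or above the median level, 832 and 125 when no H3K18ac peak lay within 1000 bp, and 620 and 107 with a 2-fold rule, by which 7.41% and 2.63% of all peaks were called. The share in strength class 1 (70.7%) was 72.8% and 74.0% with no H3K18ac peak within 500 and 1000 bp, and 59.8% with the coverage rule. The share within 1 kb of a gene start (58.9%) was 62.6% with the coverage rule, and 45.7% lay within 500 bp. The 2415 regions became 1549 with no H3K18ac peak within 1000 bp. Where a value moved because fewer regions were kept or a stricter fold was used, the alternative's own construction gives the cause, and for the rest the cause was not tested. Counts as deposited and autosomes alone moved none of these beyond its interval or 1.5 times. No paired analysis was possible because each group has 1 library and the numbers in the titles go with the antibody. The planned look at base composition was not run. Depth is one limit: at the median region a ratio carries a counting error of 13.4%, on 94 counts with cco-1 RNAi and 138 with empty vector.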
